A study of Caenorhabditis elegans with 14 samples.

Results

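The genes described here encode the worm Hsp90 chaperone and 8 proteins that work with it, its co-chaperones, read on arrays from the wild-type strain N2 of the nematode Caenorhabditis elegans. The 9 members, hsp-90, sti-1, cdc-37, daf-41, ahsa-1, unc-45, fkb-6, chn-1 and bag-1, were taken by name as a known machine. The choice was made with earlier results of these data known. The members were found through the platform's gene annotation, keeping probe sets annotated to 1 gene. All 9 were measured, by 12 of the 22548 probe sets analysed, and they are 9 of 17118 genes.

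Hsp90 is a cytosolic ATP-driven chaperone that finishes the folding of a limited set of client proteins, among them protein kinases, steroid receptors and myosin. Co-chaperones set the order of its cycle: some hand clients over from Hsp70, some slow or speed the ATPase, and some pass clients on to degradation. In worms the chaperone gene is also known as daf-21, and mutants in it and in the p23 gene daf-41 are known for altered chemosensation and altered entry into the dauer larva, a stress-resistant resting stage. Transcription of many Hsp90 machine genes is raised by heat through the heat shock factor HSF-1.

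Total RNA of L4 larvae, the last larval stage, was hybridised to 14 single-colour Affymetrix arrays. On 5 microwave arrays the worms came from a continuous-wave field inside a transmission line cell, kept at 26 °C for 2.5 h, with an absorbed power given as 5 to 40 mW per kg; the frequency is given as 1.8 GHz in one protocol text and 1 GHz in another. On 5 sham arrays worms of the same culture had spent the same time at the same temperature in a cell without a field. A further 2 arrays were labelled heat shock and 2 were labelled heat control; at what temperature and for how long is not given in the sources used here. All worms were wild type and extracted whole, and those of the microwave and sham groups had been cultured at 15 °C on E. coli. The protocol text of the heat arrays is that of the microwave ones. Each microwave and sham array held a pool of RNA from 3 exposure runs, so the microwave p-values measure the spread between pairs of such pools. Nothing states what the heat arrays pooled, so what spread their p-values measure is not known.

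The deposited values are ratios and hold no signal levels. Every sham value was exactly 1, and a microwave value was therefore taken relative to its same-numbered sham array. The control values of each gene on the heat arrays averaged 1, and the 2 heat shock arrays were taken relative to that average. A log2 ratio of -1 therefore means a level at 50% of the comparison arrays, and levels of different genes cannot be set against each other. It also cannot be seen whether a tissue's defining markers were present, only how they differed. In a whole worm, fewer cells of a type and less RNA per cell cannot be told apart.

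Some arrays stood apart or went against their labels. In microwave pair 1 the log2 ratios spread over probe sets with a standard deviation of 0.387, against 0.101 to 0.164 in the other 4 pairs. The 3' minus 5' log2 ratio of 5 worm control transcripts, a sign of RNA quality, averaged -0.74 in pair 1. In the remaining pairs it ran from -0.13 to 0.03, and on the heat arrays it lay between -0.02 and 0.05. Within a pair it compares the microwave array with its sham array, so it cannot show which of them differed. The heat-inducible gene hsp-70 had log2 ratios of -3.18 and -3.51 on the arrays labelled heat shock, against -0.14 and 0.13 on the heat control arrays. That is opposite to the known response of this gene to heat, so the directions given here follow the labels and would turn round with swapped labels or inverted ratios.

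Of the 9 Hsp90 machine genes, 7 fell on the 2 arrays labelled heat shock, set against the 2 labelled heat control, and none rose. Over all genes 14.8% were called lower and 15.2% higher by the same rule (limma, adjusted p under 0.05). The p23 gene daf-41 fell furthest, to ratios of 0.230 and 0.302 of the control mean, and was followed by ahsa-1, bag-1, cdc-37, chn-1, fkb-6 and, by the smallest amount of those called, hsp-90 itself. The genes sti-1 and unc-45 did not pass. The same 7 genes lay below both controls on both heat shock arrays, as did 27.1% of all genes. The median log2 fold change of the 9 genes was -1.07, against 0.13 over all genes.

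**Figure D1:**
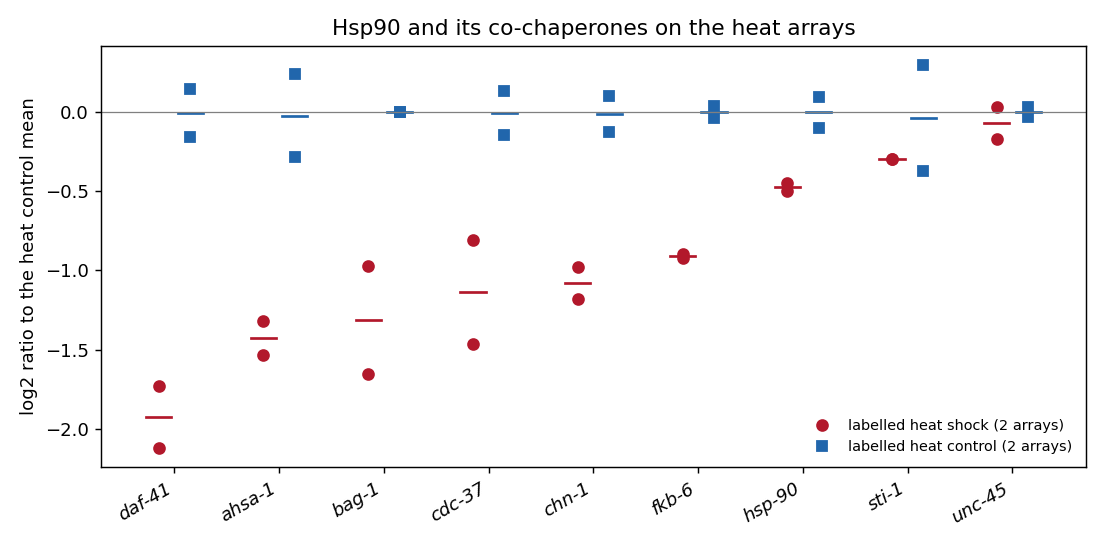
Log2 ratio to the heat control mean (vertical axis) of each of the 9 genes on the 2 arrays labelled heat shock (circles) and the 2 labelled heat control (squares), with short lines at the group means; genes run left to right by log2 fold change. In 7 genes both heat shock arrays lie below both control arrays, with daf-41 lowest at -2.12 and -1.73, and in sti-1 and unc-45 the groups overlap.

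The chaperone gene hsp-90 had log2 ratios of -0.50 and -0.45 on the heat shock arrays, against -0.10 and 0.09 on the control arrays. Both heat shock arrays lay below both controls, by more than the arrays of either group differed from each other. The log2 fold change was -0.47 ± 0.13 (SE, n = 2 per group; limma adjusted p = 0.0475), a ratio 1.39-fold lower with a 95% interval of 1.10 to 1.74. Its 2 probe sets stood close together, at -0.43 ± 0.13 (limma adjusted p = 0.0596) and -0.52 ± 0.14 (limma adjusted p = 0.0469). The first did not pass on its own. Of all genes, 18.8% had a lower log2 fold change.

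The next step of the cycle brings clients to Hsp90. The product of sti-1 binds Hsp70 and Hsp90 at once and passes clients between them, and that of cdc-37 recruits protein kinases. For sti-1 the heat shock arrays read -0.30 and -0.30, against -0.37 and 0.30 on the controls. The heat shock values lay inside the range of the controls, and the log2 fold change was -0.26 ± 0.24 (limma adjusted p = 0.426; 95% interval -0.86 to 0.34). The gap between the control arrays was larger for sti-1 than for 93.8% of genes. For cdc-37 the log2 ratios were -0.81 and -1.46 on the heat shock arrays and 0.13 and -0.14 on the controls. The heat shock arrays differed from each other by 0.66, and both lay below both controls, with a log2 fold change of -1.13 ± 0.25 (limma adjusted p = 0.0284).

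The genes daf-41 and ahsa-1, for co-chaperones that act on the ATPase cycle, had the lowest log2 fold changes of the 9 genes. The place of ahsa-1 was not separate from that of bag-1, at -1.32, since their difference overlapped between the groups. With quantile normalisation, which makes the control and heat shock ratios spread alike, bag-1 was the lower of these, at -0.84 against -0.71. The p23 protein DAF-41 holds Hsp90 in its closed, ATP-bound form, and AHSA-1, the worm Aha1, speeds ATP hydrolysis. The gene daf-41 had log2 ratios of -2.12 and -1.73 on the heat shock arrays, against -0.16 and 0.14 on the controls. The groups did not overlap, and the ratio was 3.77-fold lower, with a 95% interval of 2.69 to 5.29 (limma adjusted p = 0.00406). Only 1.55% of genes had a lower log2 fold change than daf-41. For ahsa-1 the values were -1.54 and -1.32 on the heat shock arrays and -0.29 and 0.24 on the controls. Its log2 fold change was -1.40 ± 0.21 (limma adjusted p = 0.0102), with 4.28% of genes lower. The controls of ahsa-1 differed by 0.53, more than in 90.0% of genes, and both heat shock arrays still lay below them.

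Among the proteins that dock on the tail of Hsp90 through a tetratricopeptide domain, FKB-6 is the worm relative of the large FK506-binding immunophilins and UNC-45 folds the myosin head in muscle. For fkb-6 the heat shock arrays read -0.89 and -0.92, against -0.04 and 0.04 on the controls. The heat shock arrays differed by 0.03 and the controls by 0.07, and fkb-6 had the smallest standard error of the 9 genes, with a log2 fold change of -0.91 ± 0.11 (limma adjusted p = 0.00655). For unc-45 the values were -0.17 and 0.03 on the heat shock arrays and -0.03 and 0.03 on the controls. These overlap, and the log2 fold change was -0.07 ± 0.13 (limma adjusted p = 0.694; 95% interval -0.40 to 0.26). That mean joins 2 probe sets that went opposite ways. One probe set read -0.40 and -0.32 on the heat shock arrays against -0.05 and 0.05 on the controls, and the other read 0.05 and 0.38 against -0.02 and 0.02. Neither passed on its own, at -0.36 ± 0.12 (limma adjusted p = 0.0827) and 0.22 ± 0.16 (limma adjusted p = 0.325).

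The last pair stands between folding and degradation. CHN-1, the worm CHIP, is a ubiquitin ligase that binds Hsp70 and Hsp90 and marks their clients, and also the co-chaperone UNC-45, and BAG-1 releases nucleotide from Hsp70. For chn-1 the log2 ratios were -1.18 and -0.98 on the heat shock arrays, against -0.13 and 0.10 on the controls. The groups did not overlap, and the log2 fold change was -1.07 ± 0.15 (limma adjusted p = 0.00828). Its probe sets agreed in sign and differed in size, at -0.72 ± 0.22 for one (limma adjusted p = 0.0625) and -1.42 ± 0.14 for the other (limma adjusted p = 0.00307). For bag-1 the heat shock arrays read -1.66 and -0.97, while both control ratios were 1, a log2 ratio of 0. The heat shock arrays differed by 0.68, the widest such gap of the 9 genes, and the log2 fold change was -1.32 ± 0.24 (limma adjusted p = 0.0173).

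These calls rest on both heat shock arrays. Without heat shock replicate 1 no member passed in limma (lowest adjusted p = 0.0579, for daf-41), when 0 of all genes passed and 5094 had an unadjusted p under 0.05; without heat shock replicate 2 daf-41 and bag-1 passed. Without heat control replicate 1 the log2 fold change of sti-1 was -0.59 (limma adjusted p = 0.0389) and cdc-37 lost its call, and without heat control replicate 2 sti-1 stood at 0.07 and hsp-90 lost its call. Quantile normalisation makes the spread of the control ratios equal to that of the heat shock ratios, widening the first and shrinking the second. No member passed with it, and that setting cannot tell whether the calls hold. Its log2 fold changes were -1.16 for daf-41, -0.84 for bag-1, -0.71 for ahsa-1, -0.65 for cdc-37, -0.59 for fkb-6, -0.58 for chn-1 and -0.30 for hsp-90. With unmoderated variances no member passed either (lowest adjusted p = 0.0805, for fkb-6), and hsp-90 alone lost its call with the gene length trend removed (limma adjusted p = 0.0601). Of the 12 probe sets, 8 carry a name that marks them as able to match several transcripts. Without such probe sets 3 members were measured, of which hsp-90 passed (limma adjusted p = 0.0484) and chn-1 stood at -0.72 (limma adjusted p = 0.0657).

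Ordered by log2 fold change the genes ran daf-41, ahsa-1, bag-1, cdc-37, chn-1, fkb-6, hsp-90, sti-1 and unc-45. Only neighbours in this order were compared, by their difference within each array, as a description with no test, since the same heat values set the order. Subtracting ahsa-1 from daf-41 gave -0.58 and -0.41 on the heat shock arrays, against 0.13 and -0.10 on the controls. Of all genes 1.72% lay below ahsa-1 in this way, with both heat shock arrays under both controls. Subtracting hsp-90 from fkb-6 gave -0.39 and -0.48, against 0.06 and -0.06, without overlap. The other 6 pairs of neighbours overlapped between the groups.

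Transcripts of the co-chaperones were also set against that of the chaperone. Relative to hsp-90 on the same array, 6 of the 8 co-chaperones were lower on both heat shock arrays than on both controls, where 12.6% of all genes were, and unc-45 was higher, as were 73.9% of all genes. The log2 ratio of daf-41 to hsp-90 was -1.62 and -1.28 on the heat shock arrays, against -0.06 and 0.05 on the controls. That of ahsa-1 was -1.03 and -0.87, against -0.19 and 0.15. For unc-45 it was 0.33 and 0.48, against 0.07 and -0.06. These ratios describe transcripts and were not tested.

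The related genes were described by lists chosen with earlier results of these data known, with log2 fold changes ± SE from limma. Beside the counts of every list below, 14.8% of all genes fell and 15.2% rose. In the Hsp70 machine, which delivers clients to Hsp90, 6 of 7 genes fell and none rose, with a median log2 fold change of -1.63. Its lowest log2 fold change was that of hsp-70, at -3.34 ± 0.17, followed by hsp-110, a nucleotide exchange factor, at -1.89 ± 0.16 and the Hsp40 gene dnj-13 at -1.80 ± 0.14. The constitutive Hsp70 gene hsp-1 did not pass, at -0.43 ± 0.19 (limma adjusted p = 0.137), a value close to that of hsp-90.

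Of 8 measured genes for other Hsp90 co-chaperones 5 fell and 3 did not pass, with a median of -0.93. The AAA ATPase genes ruvb-2 and ruvb-1, whose products form part of an Hsp90 assembly complex, fell to -1.90 ± 0.13 and -1.74 ± 0.20. The gene nud-1, for a protein with a p23-like domain, fell to -1.61 ± 0.18, and the tetratricopeptide genes sgt-1 and ttc-4 to -0.996 ± 0.12 and -0.86 ± 0.18. The phosphatase gene pph-5 stood at 0.25 ± 0.12 (limma adjusted p = 0.175), hip-1 at -0.16 ± 0.12 and aipr-1 at -0.26 ± 0.13. For pph-5 the values were 0.30 and 0.19 on the heat shock arrays, against -0.05 and 0.05 on the controls.

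The Hsp90 paralogs of other compartments differed in value. The endoplasmic reticulum form enpl-1 read -1.07 and -1.11 on the heat shock arrays, against -0.11 and 0.10 on the controls, and fell by 1.09 on the log2 scale (SE 0.13; limma adjusted p = 0.00571). The mitochondrial form trap-1 read -0.20 and -0.22, against 0.01 and -0.01, at -0.21 ± 0.11 (limma adjusted p = 0.206).

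**Figure D2:**
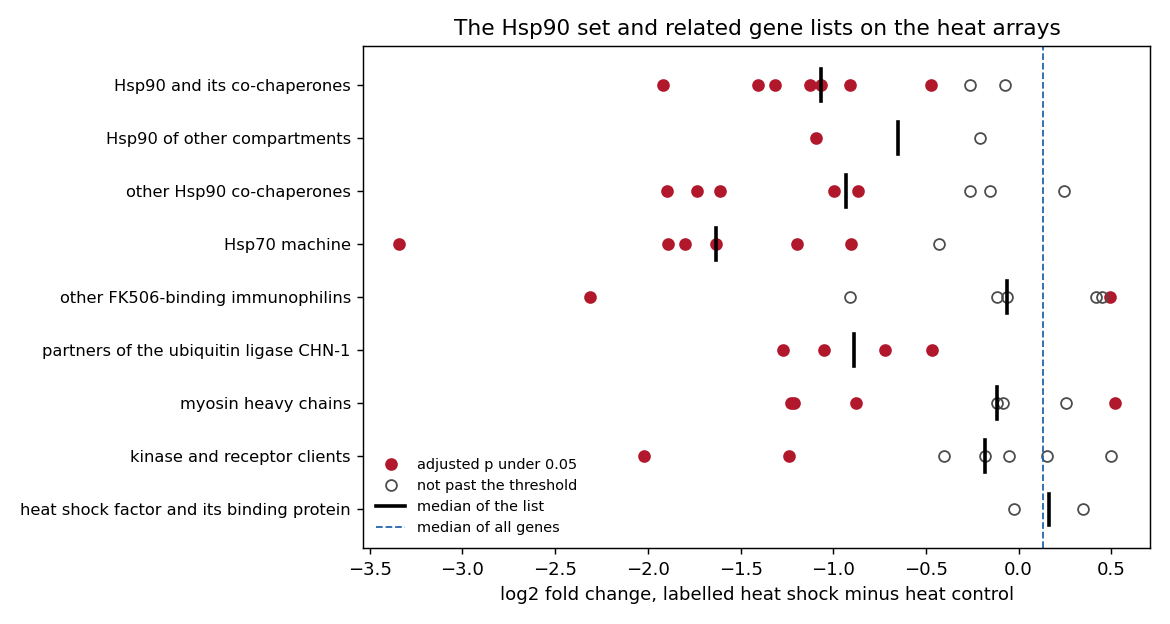
Log2 fold change of the arrays labelled heat shock minus those labelled heat control (horizontal axis) for the 9 Hsp90 machine genes and 8 related lists (rows); filled circles passed limma's adjusted threshold, open circles did not, black bars are list medians and the dashed line is the median of all genes. The Hsp70 machine has the lowest list median, -1.63, and the list of the heat shock factor and its binding protein the highest, 0.16.

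All 4 partners of the ligase CHN-1 fell, with a median of -0.89. They were cdc-48.1, a segregase of ubiquitylated proteins, at -1.27 ± 0.12, the ubiquitin-conjugating enzyme gene let-70 at -1.05 ± 0.11, ufd-2, a ligase that extends ubiquitin chains on UNC-45, at -0.72 ± 0.13, and cdc-48.2 at -0.47 ± 0.12. The 7 other FK506-binding immunophilin genes had a median of -0.06, and 5 of them did not pass. There fkb-3 fell to -2.31 ± 0.44 and fkb-2 rose to 0.49 ± 0.13.

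Genes for clients were mixed. The 7 myosin heavy chain genes had a median of -0.12, of which 3 fell, 1 rose and the other 3 missed the threshold. The body wall muscle myosins unc-54 and myo-3, whose folding needs UNC-45, fell to -1.21 ± 0.14 and -0.88 ± 0.13, while the pharyngeal myosin myo-2 rose to 0.52 ± 0.12. Of 7 genes for kinases and receptors whose relatives are Hsp90 clients, mostly known from mammals, akt-1 fell to -2.02 ± 0.18 and akt-2 to -1.24 ± 0.14, and 5 did not pass. Neither the heat shock factor gene hsf-1, at 0.35 ± 0.14 (limma adjusted p = 0.114), nor hsb-1, for a protein that binds it, at -0.02 ± 0.15, passed.

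Tissue markers moved on the same arrays, where 14.8% of all genes fell and 15.2% rose. Of 10 body wall muscle markers 6 fell and 1 rose, and their mean log2 ratio was -0.60 and -0.57 on the heat shock arrays, against 0.01 and -0.02 on the controls. For 9 intestine markers, of which 6 fell and 1 rose, the means were -0.59 and -0.48, against -0.15 and 0.08. The intestine medians were -0.70 and -0.83, against -0.07 and 0.06, and mtl-2 alone stood at 2.85 and 2.89 on the heat shock arrays. For 10 hypodermis markers, of which 4 fell and 1 rose, the means were -0.86 and -0.87, against 0.15 and -0.24. The 10 germ line markers, of which 2 fell and 1 rose, averaged -0.16 and -0.08, against -0.18 and 0.14. The 8 sperm markers, of which 4 rose and 1 fell, averaged 0.37 and 0.45, against -0.06 and 0.03. Of 10 neuron markers 2 fell, with means of -0.43 and -0.40, against -0.0025 and -0.0040. The neuron medians were -0.10 and -0.18, against -0.02 and 0.02, and unc-64 stood at -2.40 and -2.36 on the heat shock arrays. No oocyte marker of 10 passed, and their mean was -0.01 and -0.03 on the heat shock arrays, against -0.85 and 0.51 on the controls. Heat control 1 was the lower control for hsp-90, sti-1, daf-41, ahsa-1, unc-45, fkb-6 and chn-1, with the widest gaps in sti-1 and ahsa-1. For cdc-37 it was the higher control, at 0.13 against -0.14, and both controls of bag-1 stood at 0. The median over all genes was -0.01 in heat control 1 and 0.01 in heat control 2. The part of the tissue marker shifts in the members' values was not tested.

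Chromosomal neighbours were taken from RefSeq's gene table of assembly WBcel235. Of the 18 nearest protein-coding neighbours of the members, 16 were measured, of which 5 fell, 1 rose and 10 did not pass. Over all genes 14.8% fell and 15.2% rose. All neighbours that were called are named here. The neighbour of daf-41, toc-1, fell to -1.83 ± 0.22, close to daf-41 itself, while its other neighbour ZC395.4 stood at -0.02 ± 0.16. The neighbour of bag-1, tmed-3, fell to -2.22 ± 0.30, and that of hsp-90, C47E8.4, to -0.48 ± 0.12. Those of chn-1, tin-44 and T09B4.2, fell to -1.35 ± 0.22 and -0.49 ± 0.12, and that of cdc-37, W08F4.3, rose to 0.58 ± 0.11. Annotated gene length ran from 823 bp for bag-1 and 961 bp for daf-41 to 11079 bp for unc-45. With the trend of the ratios on gene length removed, 6 of the 9 genes passed, where 4706 of all 17118 genes did in either direction.

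The genes most like a member were found by Euclidean distance over the log2 ratios of the 9 arrays other than sham. For hsp-90 they were npp-1, tdp-1, ppfr-2, uncp-18 and gstk-1, at distances of 0.125 to 0.202, where the median over all genes was 1.14. Their heat log2 fold changes lay between -0.52 and -0.38. For daf-41 they were grwd-1, pir-1, K11D9.3, R07E3.1 and W01A11.1, at distances of 0.333 to 0.379, where the median was 2.97. Of the other members, ahsa-1 was nearest to daf-41, at 0.789, with 1.35% of genes nearer. Nearest to hsp-90 was unc-45, at 0.648 with 11.9% of genes nearer, closely followed by fkb-6, at 0.659 with 12.5%. The unc-45 values are means of probe sets that went opposite ways on the heat shock arrays.

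The microwave comparison asked whether the field altered these transcripts in worms held at the sham temperature. None of the 9 genes passed, as none of all genes did (0% called; limma, lowest adjusted p = 0.872), and 571 genes, or 3.34%, had an unadjusted p under 0.05. Among the members that unadjusted threshold was passed by cdc-37 alone. The median log2 fold change of the 9 genes was 0.01, against -0.003 over all genes. The 95% intervals of the members' fold changes reached at most from 0.775, for sti-1, to 1.49, for cdc-37.

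**Figure D3:**
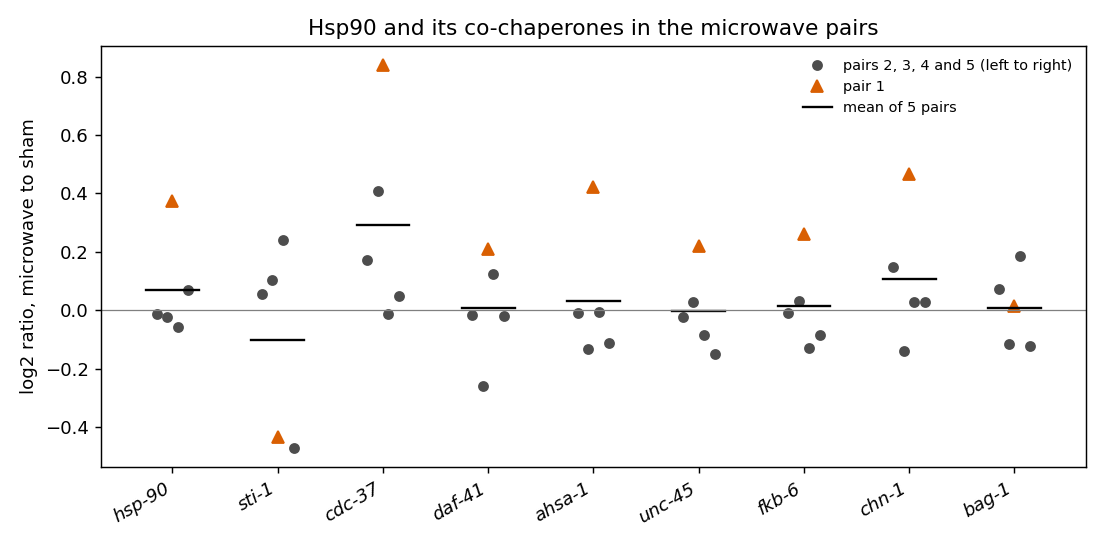
Log2 ratio of microwave to sham (vertical axis) for the 9 genes in pair 1 (triangles) and in pairs 2 to 5 (circles, left to right), with a line at the mean of the 5 pairs. Pair 1 is the highest pair in 7 of the 9 genes, and cdc-37 reaches 0.84 there.

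The chaperone gene hsp-90 read 0.38, -0.01, -0.02, -0.06 and 0.07 in pairs 1 to 5. Only pair 1 stood clear of 0, and the mean was 0.07 ± 0.18 (SD, n = 5). Of its probe sets one read 0.57 in pair 1 and between -0.10 and 0.09 in the others, and the second read 0.18 in pair 1 and between -0.04 and 0.06 in the others.

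For cdc-37 the log2 ratios were 0.84, 0.17, 0.41, -0.01 and 0.05 in the 5 pairs. It was above 0 in 4 of 5 pairs, with a mean of 0.29 ± 0.35 (SD, n = 5), and 99.5% of genes had a lower mean (limma unadjusted p = 0.0426, adjusted p = 0.872). Without pair 1 the mean was 0.15 ± 0.07 (SE; limma adjusted p = 1.00). The other client transfer gene, sti-1, read -0.43, 0.06, 0.10, 0.24 and -0.47. Pairs 1 and 5 were low and the other 3 pairs were above 0, and the mean was -0.10 ± 0.33 (SD, n = 5). The SD between pairs was larger for sti-1 than for 92.1% of genes, and for cdc-37 it was larger than for 93.4%.

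The ATPase co-chaperone daf-41 read 0.21, -0.02, -0.26, 0.12 and -0.02, a mean of 0.01 ± 0.18 (SD, n = 5). For ahsa-1 the values were 0.42, -0.01, -0.13, -0.01 and -0.11. It was above 0 in pair 1 alone, and its mean of 0.03 became -0.07 without that pair.

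Among the tetratricopeptide proteins, fkb-6 read 0.26, -0.01, 0.03, -0.13 and -0.08 in the 5 pairs, and unc-45 read 0.22, -0.02, 0.03, -0.09 and -0.15. In both genes pair 1 was highest, and the means were 0.01 for fkb-6 and -0.0023 for unc-45. The ligase gene chn-1 read 0.47, 0.15, -0.14, 0.03 and 0.03, above 0 in 4 of 5 pairs, with a mean of 0.11 ± 0.23 (SD, n = 5), which became 0.02 without pair 1. For bag-1 the values were 0.01, 0.07, -0.12, 0.19 and -0.12, with no pair far from the others.

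Pair 1 was the highest of the 5 pairs in 7 of the 9 genes, sti-1 and bag-1 being the exceptions, where it was the highest in 33.4% of all genes. The 9 genes averaged 0.26 in pair 1, while their means in the other 4 pairs ran from -0.09 to 0.04. On the same array the Hsp70 machine averaged 0.55, the other Hsp90 co-chaperones 0.50, oocyte markers 0.48, germ line markers 0.46, intestine markers 0.32, body wall muscle markers 0.24, neuron markers 0.12, hypodermis markers 0.05 and sperm markers -0.21. The partners of CHN-1 averaged 0.46 there, myosin heavy chains and the Hsp90 paralogs of other compartments 0.36 each, and hsf-1 with hsb-1 0.35. Kinase and receptor clients averaged 0.20 and other FK506-binding immunophilins -0.12. The part of RNA quality or tissue in the values of pair 1 was not tested. Without pair 1 the log2 fold changes of the 9 genes lay between -0.07, for ahsa-1, and 0.15, for cdc-37, and none passed (limma, lowest adjusted p over all genes = 1.00, with 610 of all genes at an unadjusted p under 0.05).

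Of the related lists, none had a member that passed in the microwave comparison. The median log2 fold change was 0.17 for the Hsp70 machine, 0.08 for other Hsp90 co-chaperones, 0.05 for the partners of CHN-1 and 0.13 for myosin heavy chains. Without pair 1 these medians were 0.06, -0.02, -0.02 and 0.13. The medians of the remaining lists were 0.10 for the Hsp90 paralogs of other compartments and 0.05 for hsf-1 and hsb-1. They were 0.009 for kinase and receptor clients and -0.005 for other FK506-binding immunophilins. Without pair 1 those medians were, in that order, 0.04, -0.03, -0.02 and 0.02.

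**Figure D4:**
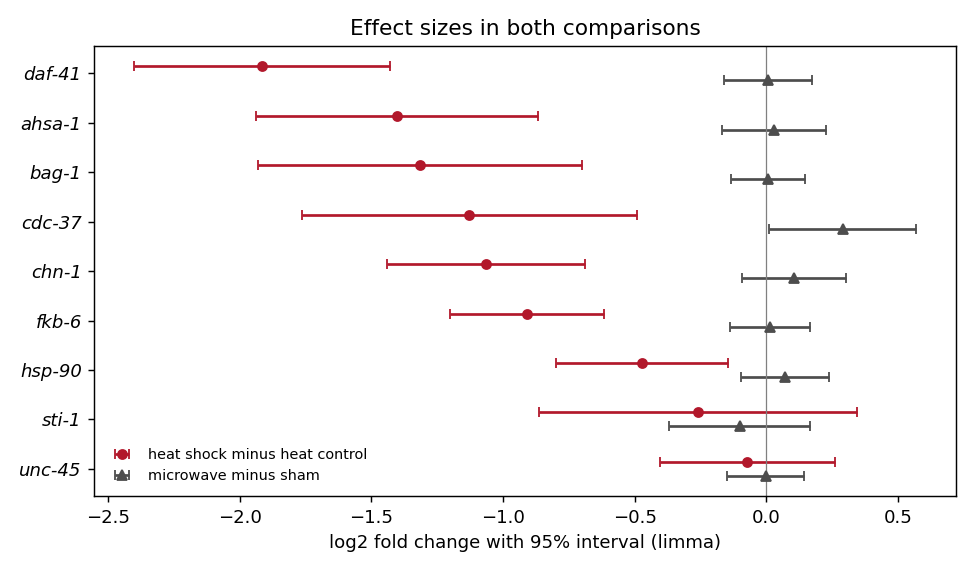
Log2 fold change with its 95% interval from limma (horizontal axis) for each of the 9 genes (rows), labelled heat shock minus heat control as circles and microwave minus sham as triangles. In the 7 genes that fell on the arrays labelled heat shock the intervals of the 2 comparisons do not overlap, and they come closest in hsp-90, where the heat interval ends at -0.14 and the microwave interval starts at -0.10.

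The log2 fold changes of the 2 comparisons, which share no array, were set against each other in 1 fit over 9 arrays. That fit took the variance of a gene as equal on microwave and heat arrays, so the microwave ratios entered its standard errors and p-values. The difference, heat minus microwave, was below 0 past the threshold for the same 7 genes, where 16.7% of all genes were, and above 0 for none, where 21.5% were. It was -1.92 ± 0.20 for daf-41 (limma adjusted p = 0.000142), -1.43 ± 0.23 for ahsa-1, -1.42 ± 0.31 for cdc-37, -1.32 ± 0.22 for bag-1, -1.17 ± 0.20 for chn-1, -0.92 ± 0.15 for fkb-6 and -0.54 ± 0.17 for hsp-90 (limma adjusted p = 0.0294). For sti-1 it was -0.16 ± 0.30 and for unc-45 -0.07 ± 0.15, and neither passed. Without pair 1 the same 7 genes passed. With the direction of the heat ratios turned, 5 of the 9 genes passed, all above 0, where 14% of all genes were above and 17.3% below. There hsp-90 stood at 0.40 ± 0.17 (limma adjusted p = 0.0963) and cdc-37 at 0.84 ± 0.31 (limma adjusted p = 0.0689), and neither passed.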

How the data were processed

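The files hold linear ratios deposited by the authors for 22625 probe sets on 14 arrays. The labels' protocols describe scanning with GCOS software and MAS 5 normalisation, while RMA is named in the submitters' processing notes. Which of these gave the ratios is not stated, nor is a genome build. All sham values are 1, and both heat control values of a probe set add up to 2 within 0.001; baselines of the other arrays were inferred from this. Without scan dates, no batch could be tested. The array number limits precision.

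Arrays were grouped by their titles. After 77 control probe sets were removed, 20766 of 22548 probe sets had 1 gene. Log2 ratios were averaged per gene and fitted with limma 3.58.1 in R 4.3.3: the mean of the 5 microwave ratios against 0, heat shock minus heat control without a block, and the difference between both. Tests were two-sided, adjusted by Benjamini-Hochberg over 17118 genes, with a threshold of 0.05. The fits were also run on simulated data with independent normal noise, alike in spread on every array of a comparison. Microwave pair 1 spread more widely than the other pairs, so those runs do not cover it. The members, named by list, and the gene lists were chosen with earlier results of these data known; list genes and the 5 genes nearest to hsp-90 and daf-41 were open to naming. Chromosomal neighbours and the ratios to hsp-90 were added after values were seen.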

Additional observations from a re-analysis of the deposited data

Results flagged for a closer look

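In the microwave comparison the log2 ratio of ahsa-1 was 0.42 in pair 1, far from the other 4 pairs, whose highest value was -0.0058. This was the 1 member of 9 with a pair set apart by the rule used, and hsp-90 came near it. For hsp-90 pair 1 read 0.38 and the next highest pair 0.07. Chance sets apart about 1 group in 20 where all pairs spread alike. Pair 1 spread more widely than the others over all probe sets, so that rate does not apply here.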

How the results depend on the processing

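In the heat comparison the count of genes called, 5129, and of members called, 7, differed between the alternatives. Quantile normalisation left 0 genes and 0 members (1505 genes at a limma unadjusted p under 0.05). Before it, log2 ratios had standard deviations of 0.193 and 0.204 on the control arrays, against 0.758 and 0.718 on the heat shock arrays. Making these equal widens the control noise and shrinks the heat shock values, so this setting cannot tell whether the calls hold. Unmoderated variances left 27 genes and 0 members (5196 unadjusted). The replicate block left 3299 genes and 6 members, with hsp-90 lost at a limma adjusted p of 0.0798. The labels state no pairing of the heat arrays, so the numbers were not taken as pairs. Over probe sets the same-numbered heat arrays did not deviate together (correlation -0.05), which cannot decide pairing for a single gene. Leaving out 1 array gave 0 to 5069 genes and 0 to 7 members, with 0 of either without heat shock replicate 1 (limma; 5094 genes at an unadjusted p under 0.05) and 784 genes and 2 members without heat shock replicate 2. Where an arm was left with 1 array, it was assumed to vary like the other. The direction turned for unc-45, which ran from -0.17 to 0.029 when 1 array was left out (above 0 without heat shock replicate 1), and for sti-1, from -0.59 to 0.073 (above 0 without heat control replicate 2). Centring, robust variances and the median over probe sets each left 7 members, with 4596, 5190 and 5122 genes called in that order.

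In the microwave comparison 0 genes were called by limma under every alternative run, with 286 to 1334 at an unadjusted p under 0.05. Members close to 0 changed sign. Quantile normalisation gave -0.011 for daf-41, -0.024 for ahsa-1 and -0.021 for fkb-6, array weights gave -0.029, -0.042 and -0.029, and centring gave 0.00062 for unc-45. Leaving out 1 pair gave -0.0056 to 0.102 for hsp-90, -0.043 to 0.074 for daf-41, -0.066 to 0.073 for ahsa-1, -0.048 to 0.050 for fkb-6, 0.016 to 0.167 for chn-1, -0.057 to 0.035 for unc-45 and -0.038 to 0.039 for bag-1. No fit without the replicate block was possible there because the sham columns hold only 1. The difference between the comparisons kept 7 members under centring, robust variances and without microwave pair 1. With the heat direction turned, an alternative chosen after seeing the data, 5 members were called, and by construction the signs changed: 1.91 for daf-41, 1.37 for ahsa-1, 1.31 for bag-1, 0.960 for chn-1, 0.894 for fkb-6, 0.836 for cdc-37, 0.401 for hsp-90, 0.362 for sti-1 and 0.073 for unc-45, with a median of 0.894. The cause of the other changes was not tested. With 2 arrays per heat group and no signal over background, small differences could not be resolved.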
